A study of Mus musculus with 19 samples.

Results

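Immediate early genes, a set of 36 genes that code for fast-responding transcription factors and for proteins that switch the same signals off again, were followed in mouse tibialis anterior muscle after a bout of injurious exercise. The members were the listed genes that have a probe set with a single gene symbol on the array, and the probe set with the highest mean over the 19 arrays stood for its gene. All 36 were found among 12393 named genes. Of these, 34 passed the filter on dim genes and were tested, and Egr3 and Nr4a3, which did not pass it, are given by their values. The 4 groups were aged desmin knockout mice (KO_Aged, 4 arrays, genotype Des(-/-) on 129/SVE, 12 to 14 months), aged wild-type 129/SVE mice (WT_Aged, 5 arrays, 12 to 14 months), adult knockout mice (KO_Adult, 5 arrays, 7 to 9 weeks) and adult wild-type mice (WT_Adult, 5 arrays, 7 to 9 weeks). Muscles of every group had performed 50 eccentric contractions, in which the active muscle is stretched, 12 hours before the RNA was taken. No unexercised muscle is among the arrays, so each difference is between exercised muscles and not a response to exercise. Whether each array is a separate animal is not stated in the labels, so the p-values measure the spread between these samples, which may be technical. The titles of 8 arrays share the leading digits of a number with another array (WT_Adult 3, 4 and 5, KO_Adult 3 and 4, and KO_Aged 4 with WT_Aged 4 and 5), and what that number marks is not stated.

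Immediate early genes are transcribed within minutes of a stimulus without new protein synthesis, mostly by factors that are already bound and become phosphorylated, such as serum response factor with its ternary complex partners and the cyclic AMP response element binding protein. Their products include the Fos and Jun proteins that pair to form AP-1, the zinc finger proteins of the Egr and Klf families and the orphan nuclear receptors of the Nr4a family. Feedback comes from dual-specificity phosphatases that inactivate MAP kinases and from Zfp36, which speeds the decay of short-lived mRNAs. In skeletal muscle these genes are known to respond to contraction and stretch. Desmin, the gene product missing in the knockout, is the intermediate filament that links neighbouring myofibrils and ties them to the cell membrane.

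The promoters of 4 members show which recognition sequences lie near the start sites of genes whose values differed between groups in this set. Klf2 was lower in KO_Adult, Btg2 had the largest difference between KO_Aged and WT_Aged among members with a promoter window, Klf4 was lower in KO_Aged, and Srf was the member that was higher there. Each window runs from 250 bases before to 50 bases after the start site that RefSeq gives in the mouse assembly GRCm38.p6, and is written 5′ to 3′ on the strand of the gene, at chr8:72318812-72319111 for Klf2 (plus strand), chr4:55532426-55532725 for Klf4 (minus strand), chr1:134079106-134079405 for Btg2 (minus strand) and chr17:46556113-46556412 for Srf (minus strand). Capitals mark the matches to 4 motifs, which were searched on both strands: the Egr site GCGNGGGCG, the cyclic AMP response element TGACGTCA, the AP-1 site TGANTCA and the CArG box, which is the site of serum response factor.
Klf2: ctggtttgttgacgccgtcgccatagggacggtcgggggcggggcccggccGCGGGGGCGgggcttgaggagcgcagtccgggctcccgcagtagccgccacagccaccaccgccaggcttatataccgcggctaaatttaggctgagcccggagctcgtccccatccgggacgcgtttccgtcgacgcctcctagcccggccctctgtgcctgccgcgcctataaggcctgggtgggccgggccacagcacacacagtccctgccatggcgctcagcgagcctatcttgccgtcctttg
Klf4: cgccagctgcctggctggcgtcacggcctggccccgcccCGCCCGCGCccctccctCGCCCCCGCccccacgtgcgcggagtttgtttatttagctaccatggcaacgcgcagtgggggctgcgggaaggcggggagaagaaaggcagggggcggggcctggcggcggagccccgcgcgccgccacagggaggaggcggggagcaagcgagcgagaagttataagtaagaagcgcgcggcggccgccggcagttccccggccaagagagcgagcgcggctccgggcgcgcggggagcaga
Btg2: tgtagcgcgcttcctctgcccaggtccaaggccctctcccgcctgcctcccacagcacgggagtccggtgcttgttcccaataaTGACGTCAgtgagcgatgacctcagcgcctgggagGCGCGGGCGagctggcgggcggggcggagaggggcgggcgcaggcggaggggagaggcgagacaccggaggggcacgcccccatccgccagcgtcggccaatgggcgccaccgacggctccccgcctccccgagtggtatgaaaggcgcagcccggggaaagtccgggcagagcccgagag
Srf: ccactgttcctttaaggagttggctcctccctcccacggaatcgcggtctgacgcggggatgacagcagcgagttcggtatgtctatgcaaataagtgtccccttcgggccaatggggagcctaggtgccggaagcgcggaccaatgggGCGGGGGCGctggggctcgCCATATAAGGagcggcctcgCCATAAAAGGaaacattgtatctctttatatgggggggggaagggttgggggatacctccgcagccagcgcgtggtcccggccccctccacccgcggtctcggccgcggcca
The window of Klf2 held 1 Egr site, and that of Klf4 held 2, both on the opposite strand. Btg2 had the cyclic AMP response element and, nearer to the start, an Egr site. Srf had 2 CArG boxes, 82 to 73 and 62 to 53 bases before its start, with an Egr site upstream of them. A window was found for 28 of the 36 members, some of which have several start sites and so several windows. The Egr site was in a window of 12 of these 28 members and in 5.55% of all 32851 windows of the same length. The CArG box was found for Egr2, Srf and Zfp36 and in 1.63% of all windows, and the cyclic AMP response element for Btg2, Dusp1 and Maff and in 1.79%. The AP-1 site was found for Klf9 alone of the 28 and in 7.81% of all windows. Members were counted by gene and the shares of all windows by window. A member with several windows had more chances to match, so the counts and the shares are not like for like. A match describes the letters of the window and not a bound factor.

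The arrays fall into 2 sets that cut across the groups. Poly-A control RNA, which is usually added at labelling, gave signal on 8 arrays (the dap control at 1003 to 2421), namely all 5 WT_Aged arrays and KO_Adult 3, 4 and 5, and little on the other 11 (2.37 to 29.7). 18S ribosomal RNA probe sets split the same arrays, at 5835 to 19660 against 29.1 to 181. What made the split is not given by the labels. KO_Aged against WT_Aged, and WT_Aged against WT_Adult, lie wholly across it, so that in these comparisons the group and the control signal cannot be told apart except through the KO_Adult arrays, of which 3 carry the signal and 2 do not. Differences are therefore given from a model with a mean per group, and for most counts and called members again with a term for the control signal. On 2 KO_Aged arrays, 2 and 3, the Gapdh 3′ to 5′ ratio was 8.61 and 5.01, against 0.766 to 0.968 on the other arrays. The labels were checked on desmin: Des averaged 350 ± 234 in KO_Aged (SD, n = 4), 11358 ± 796 in WT_Aged, 521 ± 218 in KO_Adult and 18390 ± 4248 in WT_Adult (SD, n = 5 each). Fast skeletal muscle markers, such as Acta1 and Ckm, were measured for 9 of 9 genes with a summed level of 190115 to 364023 per array. In whole muscle, fewer cells of a type and less RNA per cell cannot be told apart.

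In aged muscle most of the set was lower without desmin. KO_Aged was lower than WT_Aged for 19 of 34 members, among them Jun, Atf3, Klf4, Klf6, Btg2 and Arc, and higher for 1, Srf. Of all 7436 genes tested in this comparison, 12.5% were lower and 16.9% higher (limma, Benjamini-Hochberg adjusted p under 0.05). The median log2 difference was -1.29 over the members and 0.07 over all genes. With the term for the control signal, 1 member, Gadd45g, kept its call at a log2 difference of -2.13 (limma, adjusted p = 0.0493), where 5.49% of all genes were called in either direction. The members' median was then -0.70, against -0.01 over all genes. Markers of other cell types moved in the same comparison. Summed endothelial markers were at 2766 to 3764 in KO_Aged, against 4353 to 5461 in WT_Aged (4 of 9 lower and 1 higher), muscle progenitor markers at 1054 to 1872, against 2256 to 2926 (1 of 2 tested lower), and fibroblast markers at 19556 to 28299, against 9580 to 16027 (3 of 6 higher), with no overlap and no marker at 0. With the term limma called 3 of 9 endothelial and 1 of 2 muscle progenitor markers, all lower. It then called 0 of 6 fibroblast markers, with 1 at an unadjusted p under 0.05, and their median was 0.23, against 1.02 without the term. The part of these markers in the members' differences was not tested. Of the 19 falls, 16 kept the call under each alternative run without the term, and Dusp2, Btg1 and Rrad lost it when the 2 arrays with a high Gapdh ratio were left out (limma, adjusted p = 0.0576, 0.0560 and 0.0575).

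In adult muscle 3 of 34 members were lower in KO_Adult than in WT_Adult: Fosl1, Klf2 and Arc. No member was higher by limma, 6 members passed an unadjusted p under 0.05, and 9.37% of all genes were lower and 7.32% higher. The median log2 difference was 0.00 over the members and 0.04 over all genes. With the term, the difference is that of KO_Adult 1 and 2 to the WT_Adult arrays, which all lack the control signal. Fosl1 and Arc then kept their calls, where 6.67% of all genes were called in either direction, and the members' median was -0.31. Leaving out KO_Adult 2 gave 5 calls, 2 of them higher. Median centring gave 1 member higher and 3 lower, and turned the balance of all genes, with 916 of 1284 called genes higher, against 544 of 1241.

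Between the ages, the set was higher in the older wild type. WT_Aged was higher than WT_Adult for 16 of 34 members and lower for Srf, where 18.1% of all genes were higher and 20.8% lower. The median was 0.83 over the members and -0.03 over all genes. With the term no member was called by limma, 2 passed an unadjusted p under 0.05, the median was 0.30, and 0.0941% of all genes were called in either direction. Neutrophil markers were also higher here: 5 of 5 tested in WT_Aged against WT_Adult (median log2 difference 2.26), and so were 3 of 9 macrophage markers. Limma called none of them with the term, where 3 and 4 passed an unadjusted p under 0.05. In KO_Aged against KO_Adult 3 of the 5 neutrophil markers were higher (median 1.705), where the members' median was -0.19. In KO_Aged against WT_Aged limma called 0 of the 5, with 0 at an unadjusted p under 0.05. Their median there was 0.49, and that of the members -1.29. The part of either marker type in the members' differences was not tested. In knockout muscle, Jun was lower in KO_Aged than in KO_Adult and no other member was called by limma, with 5 of 34 at an unadjusted p under 0.05, where 3.75% of all genes were lower and 3.68% higher. With the term limma called 0 members there, 2 passed an unadjusted p under 0.05, and 9.98% of all genes were called. Of all genes called, 274 of 553 were higher in KO_Aged, against 166 of 467 under median centring and 477 of 704 with no normalization. For WT_Aged against WT_Adult, 1346 of 2891 were higher, against 1621 of 2637 under median centring. The comparisons of one group with 2 others share its arrays.

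The genotype by age interaction, which is the KO to WT difference in aged muscle minus that in adult muscle, was called for 16 of 34 members, each with a negative value, where 10.8% of all genes had a called negative and 14.3% a called positive value. The members' median was -1.08 and that of all genes 0.03. It was called for 7 members without KO_Aged 2 and 3. Of all called genes, 1060 of 1864 were positive, against 625 of 1712 under median centring and 1480 of 2082 with no normalization between arrays, whereas every member called under these settings was negative. With the term it was called by limma for 0 members, 1 passed an unadjusted p under 0.05, and 0.0269% of all genes were called.

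**Figure D1:**
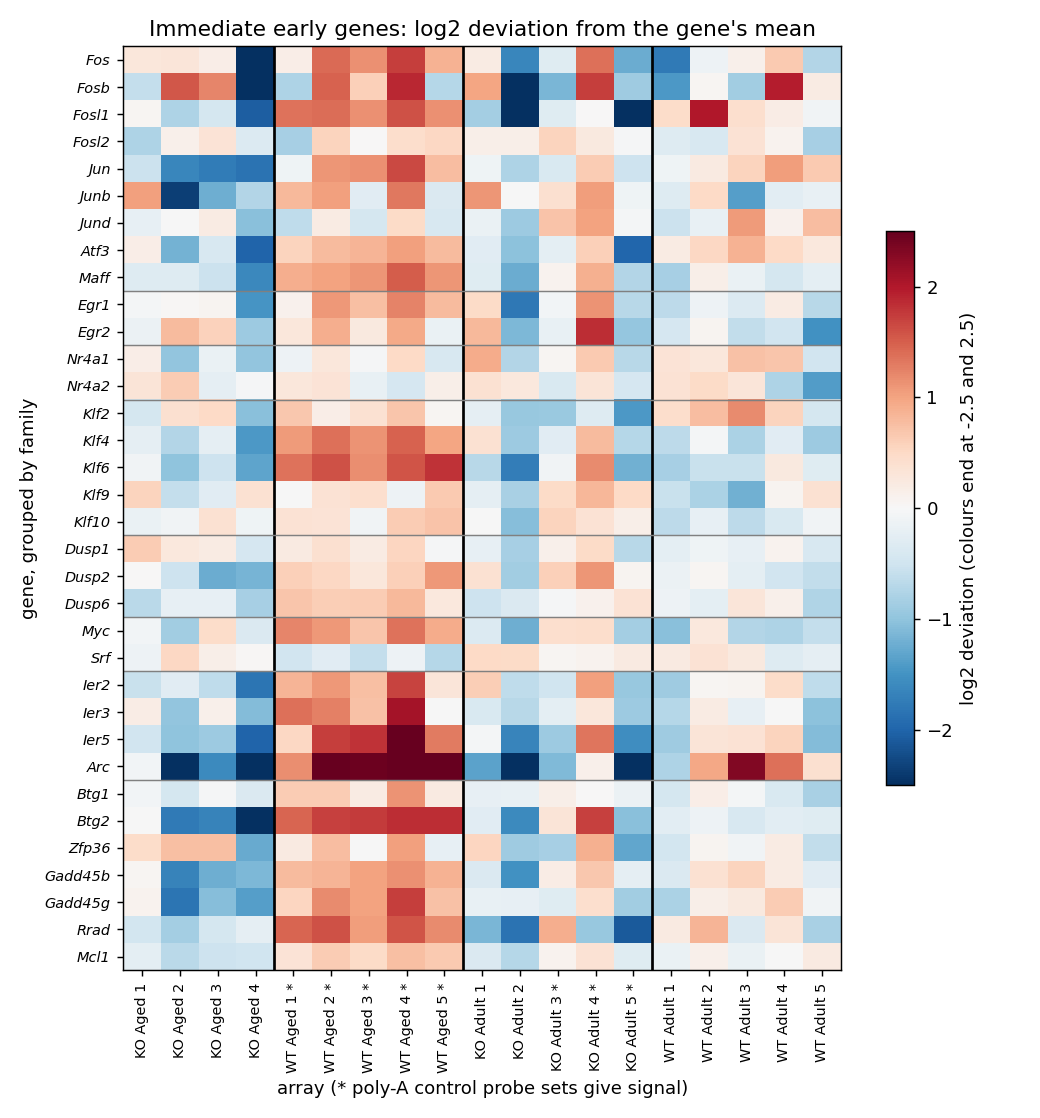
Log2 deviation of each of the 34 tested genes (rows, by family) from its mean over the 19 arrays (columns, by group), after quantile normalization. Asterisks mark the 8 arrays with poly-A control signal. The WT_Aged columns are above the mean for most rows, and columns within KO_Aged and KO_Adult differ from each other.

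Among the AP-1 genes, which code for the subunits of a dimeric transcription factor and its relatives, Fosl1 (Fra-1), at chr19:5447698-5455938, was lower without desmin at both ages. It read 687, 334, 462 and 167 on the KO_Aged arrays, against 1610, 1643, 1388, 1894 and 1386 on the WT_Aged arrays. In adult muscle it read 325, 97.8, 497, 609 and 83.9 in KO_Adult, against 857, 2505, 831, 732 and 625 in WT_Adult. Every knockout array was below every wild-type array of its age in the deposited values, by a narrow margin in the adults, where the groups overlapped once normalized. The log2 difference was -2.12 ± 0.54 in aged muscle (SE, limma, adjusted p = 0.00669) and -1.87 ± 0.51 in adult muscle (adjusted p = 0.0178). With the term it was -1.41 (adjusted p = 0.341) in aged and -2.29 (adjusted p = 0.0473) in adult muscle. The adult call was lost without KO_Adult 5 (adjusted p = 0.0538) and with only the adult groups in the fit (adjusted p = 0.0695), in a range of 0.00601 to 0.105 over 33 alternatives. A second probe set of Fosl1 gave -2.68 in aged and -2.61 in adult muscle.

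Jun, the partner of Fos proteins in AP-1, stood lowest in KO_Aged. It read 3155, 1589, 1482 and 1367 in KO_Aged, 4362, 10394, 10558, 13601 and 8179 in WT_Aged, 4767, 2900, 3739, 7685 and 3368 in KO_Adult and 4430, 5921, 7126, 9829 and 7137 in WT_Adult. The KO_Aged arrays were below all arrays of the wild-type groups. The log2 difference to WT_Aged was -2.35 ± 0.35 (SE, limma, adjusted p = 0.000122), and -2.01 with the term (adjusted p = 0.0559). Against KO_Adult it was -1.22 ± 0.35 (adjusted p = 0.0413), a call that 15 of 33 alternatives kept, and one that leaving out any single KO_Aged array but the first ended, as did leaving out any KO_Adult array but the second. The second probe set of Jun gave -0.54 between KO_Aged and WT_Aged, so the size differs between them.

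Atf3, a stress-induced member of the family that can repress transcription, and Maff, a small Maf protein that binds DNA with larger partners, were also lower in KO_Aged. Atf3 read 5753, 2613, 4229 and 1457 in KO_Aged, against 8143, 9765, 10141, 10885 and 9565 in WT_Aged, with no overlap, and its log2 difference was -1.66 ± 0.42 (SE, limma, adjusted p = 0.00621). With the term it was -1.56 (adjusted p = 0.186). In the adults Atf3 averaged 4546 ± 2680 in KO_Adult and 8044 ± 1807 in WT_Adult (SD, n = 5 each), at a log2 difference of -1.05 that missed the threshold (adjusted p = 0.0732). Maff read 206, 153, 151 and 82.9 in KO_Aged, against 436, 448, 483, 657 and 482 in WT_Aged, and its difference was -1.83 ± 0.34 (adjusted p = 0.000752). WT_Aged was also above WT_Adult for Maff (1.44 ± 0.32, adjusted p = 0.00277), whose WT_Adult arrays read 130 to 242. With the term the Maff difference was -0.98 for KO_Aged against WT_Aged (limma, adjusted p = 0.259). For WT_Aged against WT_Adult it was then 0.59 (adjusted p = 0.603).

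The other AP-1 genes were not called for genotype at either age. Fos itself read 5292, 6195, 5222 and 819 in KO_Aged and 5322, 12695, 10585, 14004 and 8576 in WT_Aged, so that 3 of the 4 knockout arrays lay just below the lowest wild-type array or above it. Its log2 difference was -1.54 ± 0.64 (SE, limma, adjusted p = 0.0786). In the adults Fos spanned 1497 to 12191 in KO_Adult and 1378 to 7291 in WT_Adult, a spread that covers any group difference. Fosb, Fosl2, Junb and Jund gave adjusted p-values of 0.0702 to 0.857 for KO_Aged against WT_Aged. Junb had a called interaction of -2.13 ± 0.73 (adjusted p = 0.0407), which 13 of 31 alternatives kept.

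Of the Egr genes, zinc finger factors that follow MAP kinase signalling, Egr1 was higher in WT_Aged than in WT_Adult. It read 5248, 6430, 6187 and 2126 in KO_Aged, 6416, 12646, 10144, 12908 and 10193 in WT_Aged, 8943, 1691, 5823, 12746 and 3780 in KO_Adult and 3866, 5796, 4695, 6823 and 3425 in WT_Adult. The highest WT_Adult array lay above the lowest WT_Aged array. The age difference in wild type was 1.12 ± 0.42 (SE, limma, adjusted p = 0.0441), a call that 19 of 32 alternatives kept, and 0.34 with the term (adjusted p = 0.842). KO_Aged against WT_Aged gave -1.15 ± 0.45 (adjusted p = 0.0611). Egr2, known for its part in nerve myelination, was called in no comparison and had medians of 158, 158, 99.3 and 97.2 in KO_Aged, WT_Aged, KO_Adult and WT_Adult. A second Egr2 probe set of like brightness gave -1.38 for KO_Aged against WT_Aged, where the one used gave -0.37. For KO_Aged against KO_Adult it gave -1.45, against 0.00, so the values for Egr2 depend on the probe set. Egr3, which muscle spindles need to form, was dim. Its arrays read 7.62 to 72.0 in the KO_Aged group and 38.8 to 76.3 in the WT_Aged group, with 19.4 to 70.5 for KO_Adult and 14.6 to 127 for WT_Adult.

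The Nr4a receptors, which act without a known ligand and control metabolic genes in muscle, showed no called difference. Nr4a1 read 3014, 1423, 2519 and 1436 in KO_Aged, 2510, 3445, 2740, 3933 and 2117 in WT_Aged, 5720, 1605, 2933, 4500 and 1743 in KO_Adult and 3548, 3426, 4576, 4261 and 1881 in WT_Adult. The 4 groups overlapped throughout, and limma gave log2 differences of -0.54 ± 0.35 in aged (adjusted p = 0.261) and -0.27 ± 0.33 in adult muscle (SE, adjusted p = 0.598). Nr4a2 lay between 45.0 and 134 on all arrays. Nr4a3, below the filter, lay at 15.5 to 20.4 for KO_Aged, 5.59 to 19.9 for WT_Aged, 12.6 to 50.2 for KO_Adult and 24.8 to 80.3 for WT_Adult.

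**Figure D2:**
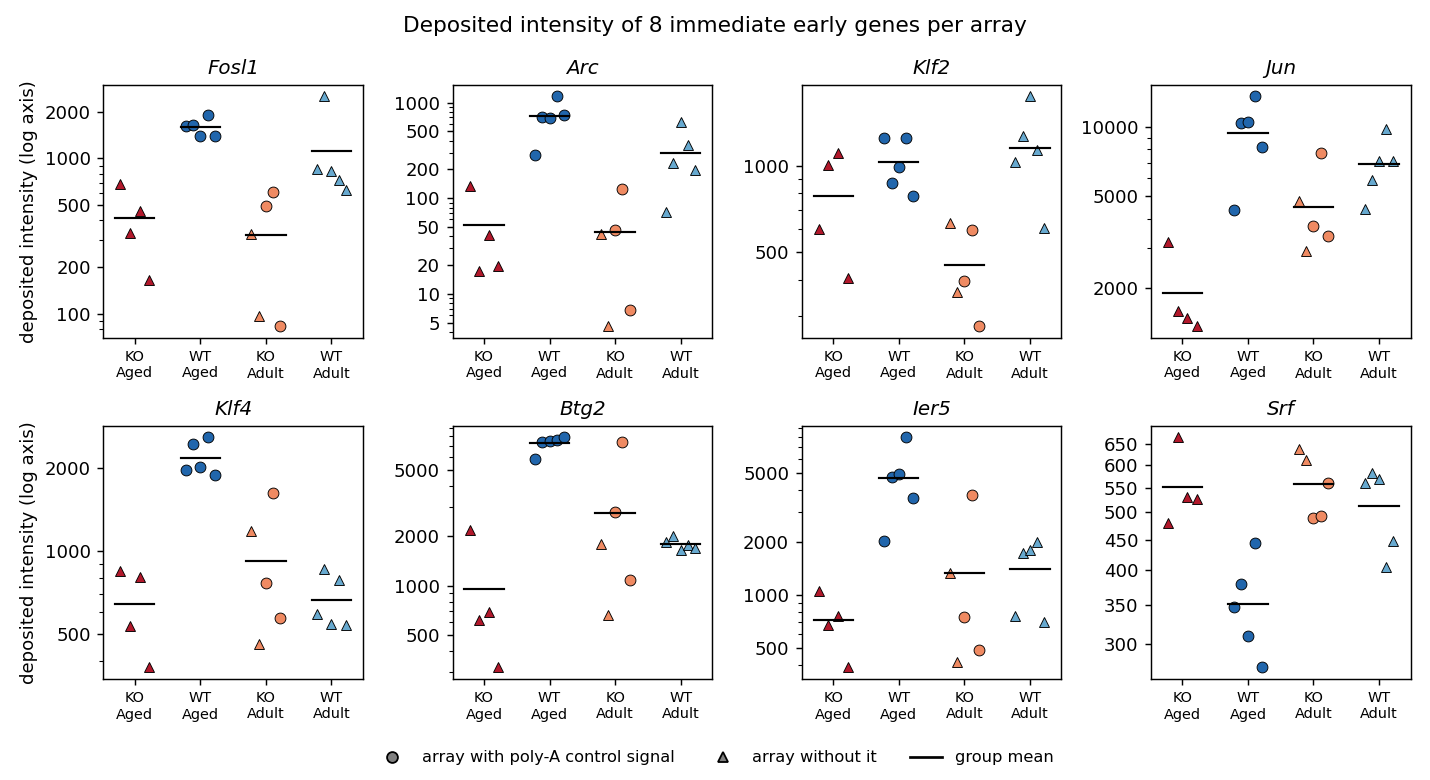
Deposited intensity (log axis) of 8 genes on each array, by group. Circles are arrays with poly-A control signal, triangles arrays without it, and lines group means. Fosl1 and Arc are lower in both knockout groups than in the wild type of the same age, Klf4, Btg2 and Ier5 are highest in WT_Aged by group mean, and Srf is lowest there.

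Klf4 and Klf6 differed by genotype in aged muscle and Klf2 in adult muscle, out of 5 Krüppel-like factors tested. Klf2, best known as a flow-responsive factor of endothelial cells, was lower in KO_Adult. It read 600, 1007, 1109 and 406 in KO_Aged and 1249, 866, 987, 1252 and 784 in WT_Aged, which overlap, and 629, 364, 395, 596 and 276 in KO_Adult, against 1026, 1268, 1741, 1135 and 604 in WT_Adult. The lowest WT_Adult array lay below the highest KO_Adult array, and the other 4 WT_Adult arrays were above all KO_Adult arrays. The adult difference was -1.27 ± 0.32 (SE, limma, adjusted p = 0.0115) and -1.09 with the term (adjusted p = 0.129), and the aged difference was -0.54 ± 0.34 (adjusted p = 0.243). The interaction for Klf2 was 0.73 ± 0.47 (adjusted p = 0.257), so a difference between the ages was not shown. Endothelial markers differed in the adult comparison too: 7 of 9 were lower in KO_Adult, among them Tie1 (-1.98) and Sox18 (-1.45), against 9.37% of all genes. Their summed level was 2788 to 3421 in KO_Adult, against 5873 to 7014 in WT_Adult. In aged muscle, where Klf2 was not called, the sums were also apart, at 2766 to 3764 in KO_Aged and 4353 to 5461 in WT_Aged. There 4 of 9 markers were lower and 1 higher, against 12.5% and 16.9% of all genes. Their part in the Klf2 difference was not tested.

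Klf4, a factor of differentiation and of endothelial and macrophage states, separated KO_Aged from WT_Aged. It read 843, 535, 805 and 380 in KO_Aged, 1964, 2436, 2011, 2578 and 1879 in WT_Aged, 1177, 459, 764, 1625 and 574 in KO_Adult and 589, 863, 543, 785 and 538 in WT_Adult. All 5 WT_Aged arrays lay above every other array of the series. The log2 difference for KO_Aged against WT_Aged was -1.86 ± 0.32 (SE, limma, adjusted p = 0.000344), that for WT_Aged against WT_Adult 1.74 ± 0.30 (adjusted p = 0.000410), and with the term they were -1.66 (adjusted p = 0.0737) and 1.54 (adjusted p = 0.229).

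Klf6, a growth-restraining member of the family, followed the same order. It read 1147, 557, 827 and 507 in KO_Aged, 2987, 3634, 2607, 3463 and 4256 in WT_Aged, 697, 322, 1106, 2699 and 509 in KO_Adult and 646, 755, 785, 1366 and 963 in WT_Adult. Here KO_Adult 4 reached the range of WT_Aged. The difference for KO_Aged against WT_Aged was -2.23 ± 0.42 (SE, limma, adjusted p = 0.000752) and -1.06 with the term (adjusted p = 0.304). Klf10, induced by TGF-beta, was higher in WT_Aged than in WT_Adult (0.79 ± 0.25, adjusted p = 0.0180), and the value was -0.09 with the term. Klf9, a glucocorticoid target, was called in none of the 4 group comparisons and lay at 6097 to 11268 for KO_Aged, 7642 to 13051 for WT_Aged, 5405 to 14986 for KO_Adult and 3769 to 10628 for WT_Adult. The probe set used for Klf9 gave -0.24 for KO_Aged against WT_Aged, and its other probe sets, all dimmer, gave -1.81 to -0.02. Of 5 other Klf genes tested, 2 were higher and 1 lower in KO_Aged than in WT_Aged, Klf15 (1.72), Klf5 (0.72) and Klf3 (-0.87), where 16.9% of all genes were higher and 12.5% lower. Limma called 0 of the 5 with the term (1 at an unadjusted p under 0.05) and 0 in the adults (0 at an unadjusted p under 0.05).

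The Dusp genes code for phosphatases that switch off MAP kinases. Dusp2, which is nuclear and inducible, and Dusp6, which is cytoplasmic and acts on ERK, were lower in KO_Aged than in WT_Aged, and Dusp1, the general inducible member, was not called. Dusp2 read 195, 98.8, 70.4 and 86.8 in KO_Aged, against 264, 238, 206, 263 and 353 in WT_Aged. Dusp6 read 346, 408, 437 and 312 in KO_Aged, against 820, 771, 771, 892 and 586 in WT_Aged. Neither pair of groups overlapped, and the log2 differences were -1.34 ± 0.32 for Dusp2 (SE, limma, adjusted p = 0.00432) and -1.07 ± 0.22 for Dusp6 (adjusted p = 0.00152). With the term both were smaller, at -0.50 and -0.49. In the adults Dusp2 averaged 216 ± 99.4 in KO_Adult and 154 ± 13.8 in WT_Adult, and Dusp6 468 ± 126 in KO_Adult and 479 ± 117 in WT_Adult (SD, n = 5 each). Dusp1 averaged 8893 ± 2494 in KO_Aged, 9395 ± 1279 in WT_Aged, 7214 ± 2509 in KO_Adult and 7035 ± 995 in WT_Adult (SD), with log2 differences by genotype of -0.10 and -0.05 in aged and adult muscle.

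Myc, a driver of growth and ribosome production, was lower in KO_Aged, and Srf, the factor that binds the CArG boxes shown above, was higher. Myc read 476, 216, 632 and 391 in KO_Aged, 1084, 975, 735, 1191 and 868 in WT_Aged, 340, 175, 603, 600 and 246 in KO_Adult and 223, 524, 275, 295 and 344 in WT_Adult. The lowest WT_Aged array was above every array of the other groups. Its log2 difference was -1.27 ± 0.34 for KO_Aged against WT_Aged (SE, limma, adjusted p = 0.00962) and 1.63 ± 0.32 for WT_Aged against WT_Adult (adjusted p = 0.00111), and with the term -0.48 and 0.85.

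Srf read 480, 668, 530 and 526 in KO_Aged, 347, 379, 310, 444 and 275 in WT_Aged, 638, 612, 489, 492 and 560 in KO_Adult and 561, 582, 568, 405 and 447 in WT_Adult. WT_Aged was the low group, and in the deposited values no KO_Aged array was as low as any WT_Aged array. The difference for KO_Aged against WT_Aged was 0.59 ± 0.18 (SE, limma, adjusted p = 0.0214), and 25 of 32 alternatives kept the call, with adjusted p-values of 0.00577 to 0.941. It was lost under median centring, on the mean of the probe sets, and without KO_Aged 2, WT_Aged 5 or both arrays with a high Gapdh ratio. It was also lost with the term, at 0.23 (limma, adjusted p = 0.659). With the term and without both of those arrays the difference was 0.04 (adjusted p = 0.941). WT_Aged against WT_Adult gave -0.50 ± 0.17 (adjusted p = 0.0297), which 22 of 32 alternatives kept, and -0.14 with the term (adjusted p = 0.837). The 2 probe sets of Srf disagreed, at 0.59 and -0.70, and their mean gave -0.05. The direction for Srf thus depends on the probe set.

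Arc, at chr15:74669081-74672570, codes for an activity-regulated protein of the cytoskeleton best known from neurons, and was lower without desmin at both ages. It read 133, 17.4, 41 and 19.7 in KO_Aged, against 284, 708, 690, 1162 and 740 in WT_Aged. In the adults it read 42.0, 4.60, 46.5, 124 and 6.73 in KO_Adult, against 72.4, 236, 632, 357 and 199 in WT_Adult. The aged groups were apart, and in the adults KO_Adult 4 was above WT_Adult 1. The log2 difference was -4.11 ± 0.74 in aged (SE, limma, adjusted p = 0.000530) and -2.69 ± 0.69 in adult muscle (adjusted p = 0.0132). With the term it was -2.86 (adjusted p = 0.154) in aged and -3.44 (adjusted p = 0.0317) in adult muscle. The adult call was kept under 31 of 32 alternatives and lost with the 11 arrays without control signal alone (adjusted p = 0.0900, in a range of 0.00576 to 0.0900). The interaction for Arc was -1.42 ± 1.01 (adjusted p = 0.310), so a difference between the ages was not shown. Arc is dim in the knockout, and the pseudocount of 4.76 shrinks such folds.

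The Ier genes, short immediate early response genes of varied function, were lower in KO_Aged as a group of 3. Ier5, which helps to regulate heat shock factor, read 1059, 676, 759 and 388 in KO_Aged, 2026, 4725, 4924, 7965 and 3579 in WT_Aged, 1346, 417, 754, 3710 and 484 in KO_Adult and 757, 1738, 1817, 2018 and 707 in WT_Adult. The KO_Aged arrays were below all WT_Aged arrays, at a difference of -2.68 ± 0.55 (SE, limma, adjusted p = 0.00153), and -2.20 with the term (adjusted p = 0.154). Ier2 spanned 258 to 657 in KO_Aged and 1013 to 2625 in WT_Aged (-1.76 ± 0.41, adjusted p = 0.00383). Ier3, a survival factor, spanned 423 to 1075 in KO_Aged and 891 to 3826 in WT_Aged, which overlap (-1.53 ± 0.39, adjusted p = 0.00649). With the term the difference was -1.89 for Ier2 (limma, adjusted p = 0.113) and -1.27 for Ier3 (adjusted p = 0.238). In the adults none of the 3 was called, with log2 differences of 0.10 for Ier2, -0.04 for Ier3 and -0.41 for Ier5.

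**Figure D3:**
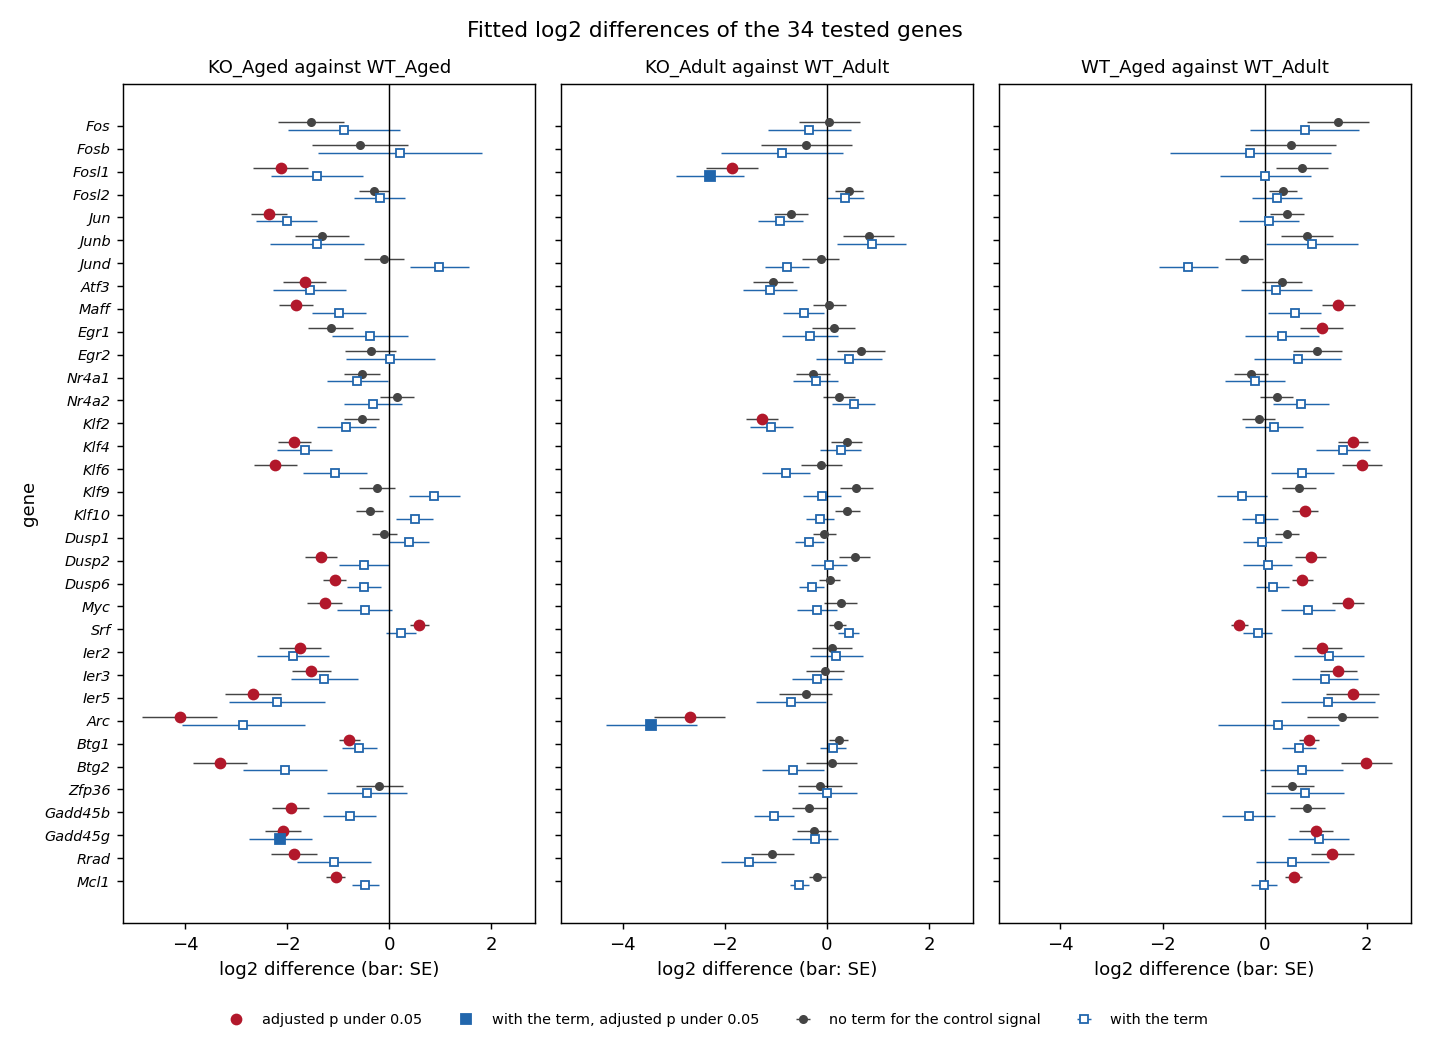
Log2 differences (points, bars are SE) of the 34 tested genes in 3 comparisons. Circles are the model with group means alone and squares the model with a term for the control signal, and red circles and filled squares have an adjusted p under 0.05. There are 20 red circles and 1 filled square for KO_Aged against WT_Aged, 3 and 2 for KO_Adult against WT_Adult, and 17 and 0 for WT_Aged against WT_Adult.

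Of the 7 members with roles in growth arrest, mRNA decay and survival, 6 were lower in KO_Aged than in WT_Aged. Of all genes, 12.5% were lower and 16.9% higher. With the term limma called 1 of the 7, Gadd45g, with 2 at an unadjusted p under 0.05, where 5.49% of all genes were called in either direction. Btg2, an antiproliferative gene that recruits the mRNA deadenylase and whose promoter is printed above, had the largest of the 6 differences without the term. It read 2180, 620, 695 and 320 in KO_Aged, 5838, 7395, 7507, 7629 and 7897 in WT_Aged, 1784, 666, 2805, 7361 and 1075 in KO_Adult and 1839, 1981, 1634, 1765 and 1679 in WT_Adult. WT_Adult was tight, WT_Aged was high on every array, and KO_Adult 4 reached the WT_Aged range. The log2 difference for KO_Aged against WT_Aged was -3.31 ± 0.53 (SE, limma, adjusted p = 0.000197) and -2.04 with the term (adjusted p = 0.137), and a second probe set gave -1.37.

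Gadd45g, which binds cell cycle and stress kinases, was the member called in aged muscle also with the term. It read 1957, 489, 891 and 746 in KO_Aged, against 2612, 4263, 3691, 6062 and 3159 in WT_Aged, with no overlap, and the difference was -2.08 ± 0.35 (SE, limma, adjusted p = 0.000348). With the term and without KO_Aged 2 and 3 it was -1.73 (adjusted p = 0.0908, in a range of 4.77e-05 to 0.0908). In the adults it averaged 1629 ± 540 in KO_Adult and 1933 ± 636 in WT_Adult (SD, n = 5 each). Gadd45b, its paralogue, spanned 223 to 894 in KO_Aged and 1464 to 1851 in WT_Aged (-1.93 ± 0.36, adjusted p = 0.000781). With the term the Gadd45b difference was -0.78 (limma, adjusted p = 0.366).

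Rrad, a small GTPase that restrains calcium channels and was named for its expression in diabetic muscle, read 1801, 1358, 1846 and 2050 in KO_Aged, 6636, 7494, 5066, 7175 and 5682 in WT_Aged, 1063, 623, 4678, 1260 and 571 in KO_Adult and 2824, 4570, 1882, 2913 and 1335 in WT_Adult. In KO_Adult, 1 array, the third, was above every WT_Adult array and the other 4 were below all of them. The difference was -1.87 ± 0.44 in aged (SE, limma, adjusted p = 0.00422) and -1.07 ± 0.42 in adult muscle (adjusted p = 0.0868). Mcl1, which protects cells from apoptosis, spanned 4378 to 5116 in KO_Aged and 8142 to 10565 in WT_Aged (-1.05 ± 0.18, adjusted p = 0.000402). Btg1, a relative of Btg2, spanned 1299 to 1766 in KO_Aged and 1993 to 3821 in WT_Aged (-0.79 ± 0.20, adjusted p = 0.00774). With the term the aged differences were -1.09 for Rrad, -0.47 for Mcl1 and -0.59 for Btg1 (limma, adjusted p = 0.363, 0.264 and 0.290). Zfp36, the mRNA decay factor, averaged 1733 ± 796 in KO_Aged (SD, n = 4) and 1777 ± 645 in WT_Aged (SD, n = 5), with a log2 difference of -0.19 ± 0.45 (adjusted p = 0.775).

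Genotype could also be compared among arrays of the same control signal. KO_Adult 3, 4 and 5 were set against the 5 WT_Aged arrays, all with the signal, so that age differs too, and KO_Adult 1 and 2 against the 5 WT_Adult arrays, all without it. The 2 comparisons share no array. The second gives the same log2 differences as the adult comparison with the term above, and is not a further result. In the first, 8 of 34 members were lower and none higher (limma, with 20 at an unadjusted p under 0.05), where 4.75% of all genes were lower and 4.59% higher: Fosl1, Klf2, Klf4, Klf6, Ier3, Arc, Gadd45g and Rrad. The log2 difference was -3.71 ± 0.78 for Arc (SE, limma, adjusted p = 0.00725), -2.31 ± 0.58 for Fosl1 (adjusted p = 0.0196), -2.08 ± 0.47 for Rrad (adjusted p = 0.0109) and -1.28 ± 0.37 for Klf2 (adjusted p = 0.0378). In the second they were -3.44, -2.29, -1.54 and -1.09, and Arc and Fosl1 were called where all arrays set the spread. In a fit of the 11 arrays without the signal alone limma called 0 members there, with adjusted p = 0.0900 for Arc, 0.105 for Fosl1 and 0.262 for Klf2, and called 1.43% of all genes. Both comparisons were negative for 22 of 34 members (64.7%), against 1875 of 7436 genes (25.2%). Members rose and fell together on single arrays, so their signs are not independent. Among all 5 KO_Adult arrays, KO_Adult 2 was the lowest for 20 of 34 members, against 21.1% of all genes, and KO_Adult 5 for 11, against 14.7%. These ranks are not within the arrays of either comparison, so they understate the weight of these arrays there. The members' median log2 deviation from the KO_Adult mean was -0.80 on KO_Adult 2, against 0.12 on KO_Adult 1, in the second comparison. In the first it was -0.52 on KO_Adult 5, against 0.18 on KO_Adult 3 and 0.86 on KO_Adult 4. The calls of the first comparison numbered 0 without KO_Adult 5, 3 without KO_Adult 3 or WT_Aged 4, 4 without WT_Aged 2, 5 without WT_Aged 3 and 14 without KO_Adult 4.

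Within KO_Adult, the arrays with the signal were higher than those without for 3 of 34 members, Klf9 (1.12), Klf10 (0.88) and Mcl1 (0.59), and lower for none by limma, with 8 at an unadjusted p under 0.05, where 13.4% of all genes were higher and 12.9% lower. The median of this difference was 0.53 over the members and -0.13 over all genes.

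**Figure D4:**
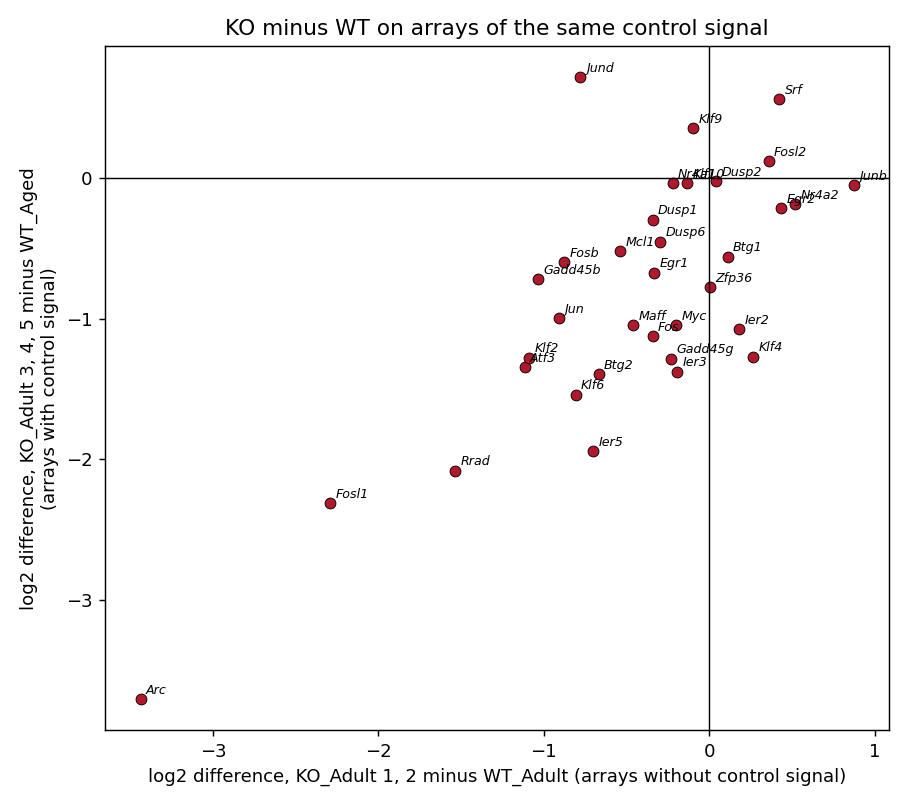
KO minus WT log2 difference of the 34 tested genes among arrays with poly-A control signal (vertical, KO_Adult 3, 4 and 5 minus WT_Aged) against that among arrays without it (horizontal, KO_Adult 1 and 2 minus WT_Adult). Arc, Fosl1 and Rrad are the lowest 3 on both axes.

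Spread between arrays of a group had a larger median in the members than over all genes. The median within-group SD on the log2 scale was 0.57 over the 34 members and 0.36 over all 7436 genes. Fosb (1.55), Arc (1.21) and Fos (1.05) were the most variable, and Srf and Mcl1 (0.26 each) the least. Single arrays were high or low for many members at once. KO_Adult 4 was the highest of its group for 24 of 34 members, against 15.6% of all genes, and KO_Adult 2 the lowest for 20, against 21.1% of all genes. WT_Aged 4 was the highest of its group for 27 members, against 24.3% of all genes, and KO_Aged 4 the lowest for 21, against 21.1%. Cell markers were not uniform within groups either: the summed level of 6 neutrophil markers spanned 7091 to 13060 for KO_Aged, 2506 to 13393 for WT_Aged, 460 to 4524 for KO_Adult and 533 to 1773 for WT_Adult. For 9 macrophage markers it was 5933 to 10693, 3499 to 8744, 3576 to 7518 and 3668 to 6232 in the same order of groups, and no marker was at 0. Their part in the members' values was not tested.

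Other genes of the same pathways were counted from lists. Of 26 further immediate early genes tested, 14 were lower and none higher in KO_Aged than in WT_Aged, where 12.5% of all genes were lower and 16.9% higher. They were led by Hbegf, a growth factor of the EGF family (-2.57 ± 0.40, SE), Pim1, a survival kinase (-2.16 ± 0.35), and Id1, an inhibitor of helix-loop-helix factors (-1.66 ± 0.28). In WT_Aged against WT_Adult 15 of the 26 were higher and 1 lower, with Socs3, the feedback inhibitor of cytokine signalling, at 2.74 ± 0.47, where 18.1% of all genes were higher and 20.8% lower. In KO_Adult against WT_Adult 3 were higher, again with Socs3 (1.89 ± 0.47), and 3 lower, with the GTPase gene Rhob (-2.21 ± 0.41) and Ppp1r15a, a stress phosphatase subunit (-1.02 ± 0.28), where 7.32% of all genes were higher and 9.37% lower. With the term limma called 0 of the 26 in each of these 3 comparisons, with 7, 2 and 7 at an unadjusted p under 0.05.

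Of 13 other feedback genes of MAP kinase signalling, 2 were higher and 4 lower in KO_Aged than in WT_Aged, against 16.9% and 12.5% of all genes, shares that apply to each count for this comparison, and 1 was called with the term. Spry1 rose (1.44 ± 0.19, SE) and was the 1 that kept its call (1.58 with the term, limma, adjusted p = 0.0133), whereas its relative Spry2 fell (-1.72 ± 0.30) and did not (-0.91, adjusted p = 0.219). In KO_Adult, Spred2, an inhibitor of Raf activation, was lower than in WT_Adult (-0.76 ± 0.16, and -0.88 with the term, adjusted p = 0.0178). Of 14 kinases and SRF cofactors upstream of these genes, 5 were lower and 1 higher in KO_Adult, against 9.37% and 7.32% of all genes. With the term 1 was called, Mrtfa, the actin-sensing cofactor of serum response factor (-1.18 ± 0.19, and -1.01 with the term, adjusted p = 0.0214). Of 11 cytoskeletal targets of serum response factor, 3 were lower in KO_Adult than in WT_Adult, Tagln (-1.24), Flna (-0.97) and Zyx (-0.92), and 3 in KO_Aged than in WT_Aged, Myh9 (-1.29), Actb (-2.22) and Cnn2 (-0.63), with none higher in either. All 6 of these calls were lost with the term (limma, adjusted p = 0.0806 to 0.340), which called 1 higher and 1 lower in the adult comparison and 1 lower in the aged one. Of 9 AP-1 and CREB partners none was called in adult muscle by limma, with 0 at an unadjusted p under 0.05, and 3 were lower and 1 higher in KO_Aged than in WT_Aged, led by Mafk (-0.92 ± 0.19) and Bach1 (-1.76 ± 0.39). With the term limma called 0 of these 9, with 1 at an unadjusted p under 0.05, and Bach1 was at -0.31 (adjusted p = 0.736).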

How the data were processed

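Gene expression was measured on Affymetrix arrays, 1 per sample. Per the submitters' processing notes the deposited intensity values were made with MAS5. Its version was not found in the sources used here. They are on a linear scale, and the trimmed mean of each array was 500.2 to 500.3, as found from the values. Of 22690 probe sets, 64 controls were left out before normalization, and of the rest 20380 carried 1 gene symbol in the platform annotation. Probe sets with several symbols (691) or no symbol (1619) were not used.

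The scale was log2 of the value plus a pseudocount of 4.76 (percentile 10 of all values), followed by quantile normalization, since array medians spanned 0.63, above the limit of 0.5. The upper 60% of genes by mean (7436) were tested with limma 3.58.1 in R 4.3.3 (lmFit, eBayes, a mean per group over all 19 arrays), with Benjamini-Hochberg adjustment over all of them and a threshold of 0.05. Alternatives were a term for the control signal, only the arrays without it, leaving out arrays with a Gapdh ratio over 3, other normalizations, pseudocounts of 1 and 32, other filters, the mean of all probe sets, array weights, only the groups compared, the shared digits of array titles as a random block (added after the data were seen) and leaving out each array. The number of arrays limits the precision. The script was tested on simulated data. Tables were handled in pandas 2.3.3 and numpy 2.4.6, and matplotlib 3.10.9 drew the figures (Python 3.11.15). Promoters are from RefSeq.

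The members, lists and alternatives were chosen with earlier results of these data known. All 36 members are named, with Des, and from each further list at most 3 called genes with the smallest p in a comparison.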

Additional observations from a re-analysis of the deposited data

Results flagged for a closer look

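Single arrays stood far from the others of their group, by the gap to the nearest array as a share of the group's range, for 6 genes, a rule that chance meets in about 1 in 20 groups. Many sets of a gene and a group were searched, so flags in this number can arise by chance alone. KO_Aged 4 was low for Fos (819, the others 5222 to 6195), Egr1 (2126, the others 5248 to 6430) and Zfp36 (582, the others 1817 to 2289). Among the KO_Aged arrays, Jun was high on array 1 (3155, the others 1367 to 1589) and Klf10 on array 3 (1161, the others 789 to 848). In WT_Adult, Fosl1 was high on array 2 (2505, the others 625 to 857), and without that array the adult Fosl1 difference was smaller and still called. Whether anything beyond chance set these arrays apart was not tested.

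The knockout to wild-type log2 difference in aged muscle minus that in adult muscle passed the test for 16 members. Among the transcription factors it was -1.65 for Jun, -2.13 for Junb, -1.88 for Maff, -2.24 for Klf4, -2.12 for Klf6 and -1.54 for Myc. Among the phosphatases it was -1.88 for Dusp2 and -1.13 for Dusp6, and among the Ier genes -1.86 for Ier2, -1.49 for Ier3 and -2.26 for Ier5. The calls for Junb, Ier3 and Ier5 were kept by 13, 14 and 16 of 31 alternatives. For Btg1 and the others of its family the values were as follows. It was -1.01 for Btg1, -3.41 for Btg2, -1.58 for Gadd45b, -1.82 for Gadd45g and -0.87 for Mcl1. Its size depends on the probe set for some members. The second probe set of Btg2 gave -1.37 in aged and -1.01 in adult muscle, and that of Jun -0.54 and 0.04. The other probe sets of Mcl1 gave -1.25 to -0.59 in aged and -0.71 to 0.26 in adult muscle. The second of Btg1 gave -1.58 and 0.41, which lie further apart than the values of the one used. No member kept the call with the term for the control signal, and the interaction rests on WT_Aged arrays that all carry that signal.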

How the results depend on the processing

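Counts of members called changed by over 1.5 times as follows. For KO_Aged against WT_Aged (20 calls), the term for the control signal gave 1 and that term without the 2 arrays of high Gapdh ratio, an alternative added after the data were seen, gave 0. For WT_Aged against WT_Adult (17) both gave 0. For the interaction (16) both gave 0, and leaving out the 2 arrays alone gave 7. For KO_Adult against WT_Adult (3), array weights gave 6, only arrays without control signal 0, and the term without the 2 arrays 1. For KO_Aged against KO_Adult (1), array weights gave 4, and 0 came from no filter on dim genes, the mean of all probe sets, only the groups compared, the term, only arrays without control signal, leaving out the 2 arrays, and both together. For KO_Adult against WT_Aged with control signal (8), median centring gave 5, no filter 3, the mean of probe sets 5 and array weights 22.

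Leaving out each array in turn gave 19 to 21 calls for KO_Aged against WT_Aged, 2 to 5 for KO_Adult against WT_Adult, 13 to 20 for WT_Aged against WT_Adult, 0 to 5 for KO_Aged against KO_Adult, 11 to 18 for the interaction and 0 to 14 for KO_Adult against WT_Aged with control signal. The call for KO_Aged against KO_Adult ended without any of KO_Adult 1, 3, 4 and 5, KO_Aged 2, 3 and 4, and WT_Aged 2, 3 and 5. Signs turned for Srf between KO_Aged and WT_Aged on the mean of probe sets (-0.0549), and with the term for Klf10 (-0.0938) and Mcl1 (-0.0192, both the same without the 2 arrays) between WT_Aged and WT_Adult and for the interaction of Gadd45b (0.26, and 0.71 without the 2 arrays) and Mcl1 (0.0708 and 0.18). The causes were not tested. Over all genes the median was 0.20 under median centring and 0.04 under quantile normalization for KO_Adult against WT_Adult, and -0.14 and 0.03 for the interaction (-0.08 with the term). With no normalization 421 of 1417 genes called in KO_Adult against WT_Adult were higher. No paired analysis was possible because the groups compared share fewer than 2 numbers in the titles. With the shared leading digits as a random block, added after the data were seen (correlation 0.29), KO_Aged against KO_Adult had 0 calls and the other counts stayed within 1.5 times, at 22 for KO_Aged against WT_Aged, 3 for KO_Adult against WT_Adult, 15 for WT_Aged against WT_Adult, 13 for the interaction and 6 for KO_Adult against WT_Aged with control signal.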
